A study of Mus musculus with 2 samples.

Results

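Kupffer cells, the resident macrophages of the liver sinusoids, were followed in a single-cell RNA library from mice with 4T1 breast cancer metastases in the liver. In that library a barcode (the tag shared by all molecules of 1 droplet) was taken as a Kupffer cell if it held at least 5 UMIs (unique molecular identifiers, 1 per captured RNA molecule) of C1qa, C1qb and C1qc together. It also had to hold at least 2 UMIs of Clec4f, Vsig4 and Timd4 together, and at most 1 of the T cell genes Cd3d, Cd3e and Cd3g. The gate kept 249 of 4830 barcodes, and 237 of these could be given to a treatment group by their hashtag, leaving 12 out. Both deposited libraries together held 14421 barcodes. The 237 barcodes were 16 from the vehicle group, 53 from the low dose and 168 from the high dose.

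The mice were female BALB/cAnNCrl, carrying 4T1 cells placed in the liver by hemisplenectomy. Each received a hepatic arterial infusion, either of vehicle or of CBL0137 at 1 of 2 doses, low or high. CBL0137, of the curaxin class, attaches to DNA and weakens its contacts with histones. What the low and the high dose amounted to is stated neither in the labels nor in the methods read here. Cells were collected 5 days after treatment from 2 mice pooled per group, isolated on CD11b beads by the study's methods and described as density-gradient leukocytes by the labels. All 3 groups shared the tumor, the surgery and the infusion, and no group was free of these. The question a comparison of the groups addresses is how resident liver macrophages differ after the infusion of CBL0137. With 1 pooled sample per group there is no replicate and no test. The intervals given below cover counting error only and say nothing of the spread between mice. Those of levels and ratios treat each UMI as independent, so they also leave out the spread between barcodes.

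The library carries the label spleen, while the name of its deposited matrix says liver. Clec4f, a lectin that marks Kupffer cells and not splenic macrophages, was found in 13 of 16, 38 of 53 and 151 of 168 of these barcodes. Of the 9591 barcodes of the other library, labelled liver, 4 passed the same gate. Clec4f is part of the gate, so its presence is largely set by the rule. Of the markers outside the gate, Cd5l was found in 14, 40 and 146 of the barcodes, while Cd209b, which marks marginal zone macrophages of the spleen, had 1 UMI at the low dose and none in the other groups. The cells are treated here as liver cells, after the name of the matrix. There were 15 barcode sequences present in both libraries, 2 of them among the 237 Kupffer barcodes.

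Kupffer cells line the sinusoids, where they take up blood-borne particles, bacteria, worn red cells and their iron. Clec4f, the complement receptor Vsig4 and the phosphatidylserine receptor Timd4 (Tim-4) mark long-lived resident cells, and Cd5l (AIM) is a secreted protein of the same cells. C1qa, C1qb and C1qc encode the 3 chains of complement C1q and are shared by most tissue macrophages. When resident cells are lost, blood monocytes can fill the niche, and such newcomers acquire Clec4f and Vsig4 before Timd4. MHC class II molecules, which macrophages use to show peptides to CD4+ T cells, are usually higher in recruited macrophages than in resting resident ones.

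Group membership rested on a 15-base hashtag on an antibody to mouse surface proteins, so the sequences that set the groups are shown first. In each line capitals mark the bases that differ from both other hashtags at that position.
A0301, vehicle: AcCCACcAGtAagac
A0305, low dose: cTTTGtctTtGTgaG
A0310, high dose: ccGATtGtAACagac
Any pair of them differed at 10 or 11 of the 15 bases. A barcode went to the hashtag with the most UMIs if that hashtag had at least 10 and at least 3 times the next. The median count of the assigned hashtag was 2797 UMIs in vehicle Kupffer cells, 2055 at the low dose and 390 at the high dose. HTODemux, a caller that sets a threshold for each hashtag from a background cluster, made the same call for all 16 vehicle barcodes, for 50 of 53 at the low dose and for 59 of 168 at the high dose. It called 106 of the high dose barcodes negative, and 3 low dose and 3 high dose barcodes that the rule kept doublets. The high dose cells therefore carried the weakest hashtags of the 3 groups.

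The vehicle cells held 93326 gene UMIs in all, the low dose cells 483566 and the high dose cells 1076596. The median barcode held 4722, 8407 and 2750 UMIs in that order, with a range of 646 to 22461, 596 to 28501 and 553 to 54950. The ranges overlapped, and both dosed groups reached above the vehicle maximum. Barcodes of less than 1000 UMIs were 4 of 16, 5 of 53 and 29 of 168. The median mitochondrial share was 8.97%, 6.65% and 11.4%. The nuclear RNA Malat1 was below 3 UMIs in 8 of 16 vehicle barcodes (50%), 18 of 53 low dose barcodes (34.0%) and 113 of 168 high dose barcodes (67.3%). Among neutrophil barcodes of the same library the share was 1.91%, 0.81% and 3.03%, and among endothelial barcodes 57.1%, 39.8% and 60.1%. Barcodes poor in Malat1 were shallow, with medians of 1006, 1992 and 1706 UMIs, and at the high dose 102 of the 113 were among those HTODemux called negative. Whether they hold damaged cells was not tested.

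**Figure D1:**
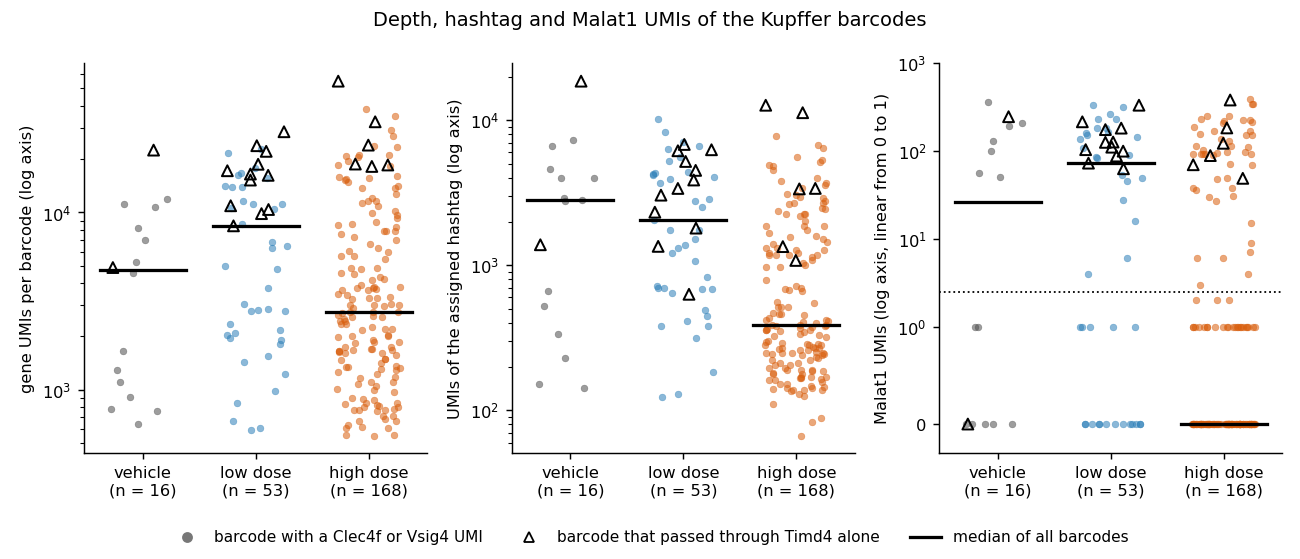
Gene UMIs (left, log axis), UMIs of the assigned hashtag (middle, log axis) and Malat1 UMIs (right, log axis, linear from 0 to 1) in each of the 16 vehicle, 53 low dose and 168 high dose Kupffer barcodes. Circles are barcodes with a Clec4f or Vsig4 UMI, triangles those that passed the gate through Timd4 alone, black bars are medians and the dotted line separates barcodes under 3 Malat1 UMIs; most high dose barcodes lie below it.

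Kupffer barcodes made up 1.95% of the 820 assigned vehicle barcodes (95% exact interval 1.12 to 3.15%), 4.02% of 1318 at the low dose (3.03 to 5.23%) and 7.16% of 2345 at the high dose (6.15 to 8.28%). The share was highest at the high dose and lowest in the vehicle group. These are shares of what the bead or gradient step let through, and at the high dose 48.3% of all assigned barcodes were poor in Malat1, against 14.3% in the vehicle group. With only barcodes of at least 3 Malat1 UMIs the shares were 1.14%, 2.91% and 4.54%. A share also depends on the other cells in the total. From vehicle to high dose, 366, 617 and 231 of the assigned barcodes were neutrophil barcodes. Endothelial barcodes were 28, 93 and 323 and T cell barcodes 54, 110 and 243. Their shares were likewise lowest in the vehicle group and highest at the high dose, so this order was not particular to Kupffer cells. The rule's own threshold mattered at its lower edge: 4 vehicle, 9 low dose and 11 high dose barcodes held exactly 2 UMIs of Clec4f, Vsig4 and Timd4, and a further 8, 7 and 34 met the C1q and Cd3 limits with exactly 1.

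Of the genes that chose the cells, Clec4f, Vsig4 and C1qa stood at like levels in the 3 groups, while Timd4 was lower at the high dose. Levels are given here as CPM, the UMIs of a gene per 1000000 gene UMIs, with the barcodes of a group summed. Clec4f stood at 2572 CPM in the vehicle group, 2258 at the low dose and 2450.3 at the high dose. The complement receptor Vsig4 stood at 1393, 1383 and 1487 CPM and Timd4 at 429, 434 and 283 CPM in the same order. For C1qa the values were 5550.4, 5151 and 5173 CPM. The 95% counting interval of each level stands in parentheses where given. After thinning each barcode to 1000 UMIs, Timd4 was found in 50%, 25% and 23.0% of barcodes, after thinning to 500 UMIs in 6.25%, 18.9% and 13.1%, and without thinning in 62.5%, 75.5% and 46.4%. Since these genes defined the cells, the values describe the gate and are no finding. Cd5l, the marker the gate did not use, stood at 4950.4 CPM (4509 to 5423) in the vehicle group, 4419 (4234 to 4611) at the low dose and 3673 (3559 to 3789) at the high dose. In thinned barcodes Cd5l was found in 75% of the 12 deep enough in the vehicle group, 68.8% of the 48 at the low dose and 74.8% of the 139 at the high dose, against 0%, 0% and 1.23% of T cell barcodes, which should lack it (4, 5 and 29 Kupffer barcodes were too shallow and left out). Without thinning, the shares were 87.5%, 75.5% and 86.9% at median depths of 4722, 8407 and 2750 UMIs. The label Kupffer cell thus held for most barcodes in all 3 groups.

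It did not hold for all of them. There were 20 barcodes that passed through Timd4 with no UMI of Clec4f or Vsig4: 2 in the vehicle group, 12 at the low dose and 6 at the high dose. They were deep, with medians of 13677, 16328 and 21354 UMIs, and so supplied 29.3%, 40.9% and 15.5% of the summed UMIs of their groups. Over all groups their Cd5l level was 316 CPM, against 5096 CPM in the 217 barcodes with a Clec4f or Vsig4 UMI. Cd5l was at 0 in 1 of 2, 10 of 12 and 4 of 6 of them. The iron exporter Slc40a1 (ferroportin) stood at 105 against 2658 CPM, and the scavenger receptor Marco at 2.55 against 3584 CPM. These resident markers were therefore low or absent in them. In the other direction, H2-Aa, the alpha chain of the MHC class II molecule I-A, stood at 3292 against 479.5 CPM. Its chaperone Cd74, the invariant chain, stood at 9392 against 2099 CPM. Fibronectin (Fn1) stood at 2090.3 against 372 CPM. These barcodes keep the name of their rule, Timd4 alone, and the list counts below are given also without them where they changed. The split was made after the values had been seen and is a description.

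**Figure D2:**
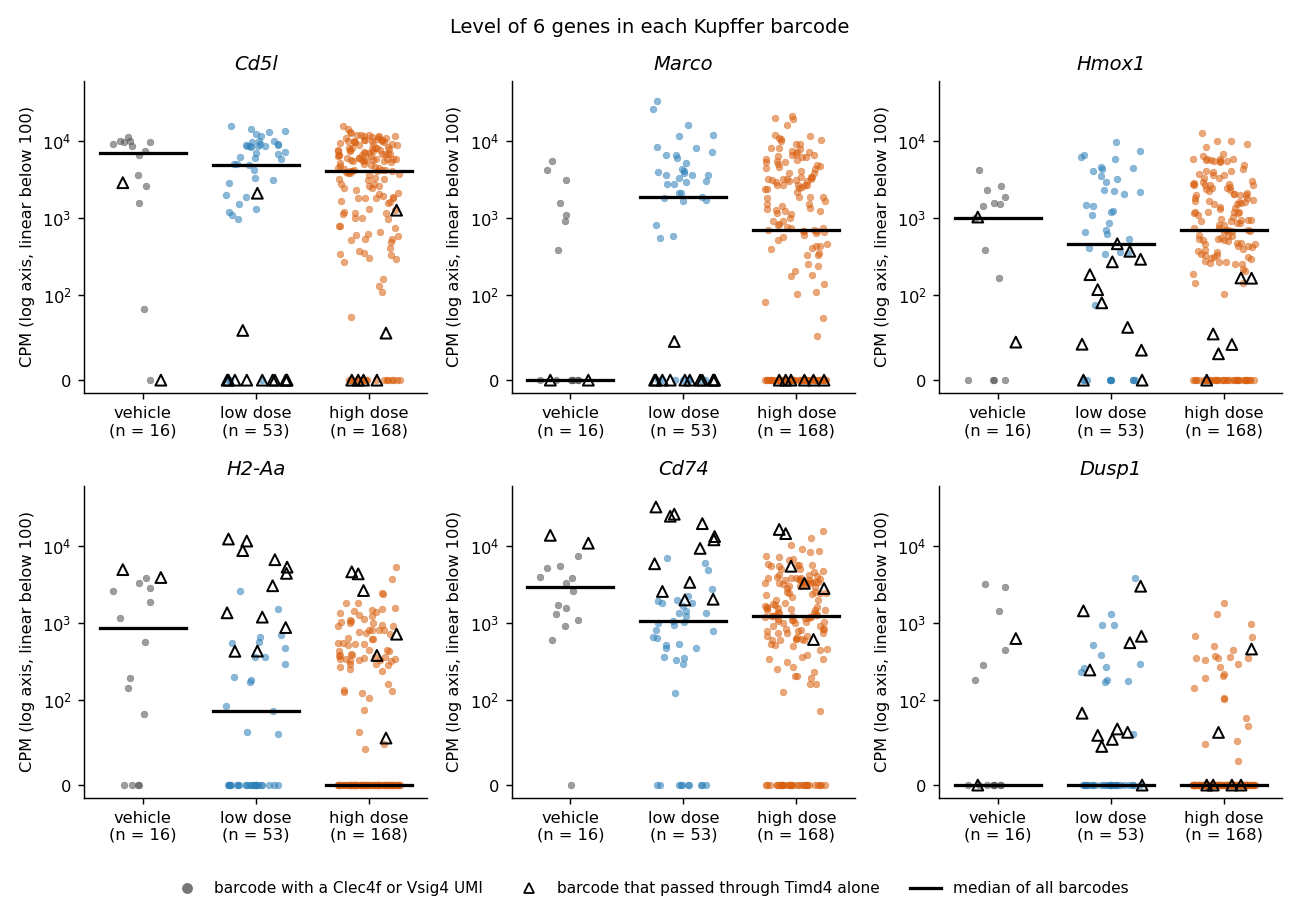
Level of Cd5l, Marco, Hmox1, H2-Aa, Cd74 and Dusp1 in each Kupffer barcode, in CPM (log axis, linear below 100), by treatment group. Circles are barcodes with a Clec4f or Vsig4 UMI, triangles the 2, 12 and 6 barcodes that passed through Timd4 alone, and black bars medians of all barcodes; the triangles sit at or near 0 for Marco and high for Cd74.

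The deepest vehicle barcode showed how few cells carried some vehicle values. It held 22461 UMIs, 24.1% of the group, with none of Clec4f, Vsig4 or Cd5l. It supplied 51.5% of the vehicle H2-Aa UMIs, 35% of those of the monocyte chemokine receptor Ccr2 and all 19 UMIs of F13a1, coagulation factor XIII A. Among the 14 vehicle barcodes with Clec4f or Vsig4, a different barcode of 11974 UMIs held 82.4% of the UMIs of lysozyme (Lyz2), 76.9% of Ccr2 and 78.8% of Plac8, genes of monocytes and recently recruited macrophages. It passed the gate narrowly, with 1 UMI each of Clec4f and Vsig4, none of Timd4, and 3, 1 and 2 UMIs of C1qa, C1qb and C1qc. Another measure of the same limit was Marco, of which 1 vehicle barcode held 73.0% of the UMIs. With 16 vehicle barcodes, a single cell could thus move a vehicle level.

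Between the high dose and the vehicle group 3279 genes had at least 50 UMIs over both, and 334 of them (10.2%) stood 2-fold or more higher at the high dose while 179 (5.46%) stood 2-fold or more lower, with a median log2 ratio of -0.05. Of the genes 2-fold or more apart, 65.1% were thus higher at the high dose, or 54.9% when each barcode weighed the same. Between the low dose and the vehicle group 1743 genes reached that minimum, of which 126 (7.23%) stood higher and 35 (2.01%) lower, with a median of -0.01. Over barcodes with Clec4f or Vsig4 only, 2752 genes could be compared at the high dose, of which 11% stood higher and 7.09% lower, and 1057 at the low dose, of which 8.14% stood higher and 2.37% lower. Both comparisons share the 16 vehicle barcodes, so a gene that was unusual in those cells appears in both. These percentages are the background against which each group of genes below is read. Among genes with at least 200 UMIs the 10 highest ratios at the high dose belonged to Pf4, Ngp, S100a8, Lcn2, Spp1, Cxcl13, Ltf, Slpi, Camp and Fn1, most of them genes of neutrophils or platelets or of few barcodes, as described below. The 10 lowest belonged to Tgfbi, Btg1, Klf2, H2-Aa, Samhd1, Zfp36, Vim, Junb, Malat1 and Rgs1. At the low dose the 5 highest were Hbb-bs, Hba-a1, Hba-a2, Cxcl13 and Saa3, and the 5 lowest Ccl24, Plac8, Dusp1, Gm42418 and Tmsb10. Tgfbi, a matrix protein made by monocytes and macrophages, stood at 611 CPM in the vehicle group, 219 at the low dose and 189 at the high dose, with log2 ratios of -1.48 (-1.96 to -0.99) and -1.69 (-2.12 to -1.24). Samhd1, a nucleotide hydrolase that restricts viruses, stood at 621, 358 and 238 CPM, Btg1, an antiproliferative factor of quiescent cells, at 611, 389 and 194 CPM, and the transcription factor Klf2 at 461, 428 and 153 CPM. The last 3 were lower at the high dose and within 2-fold of vehicle at the low dose.

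**Figure D3:**
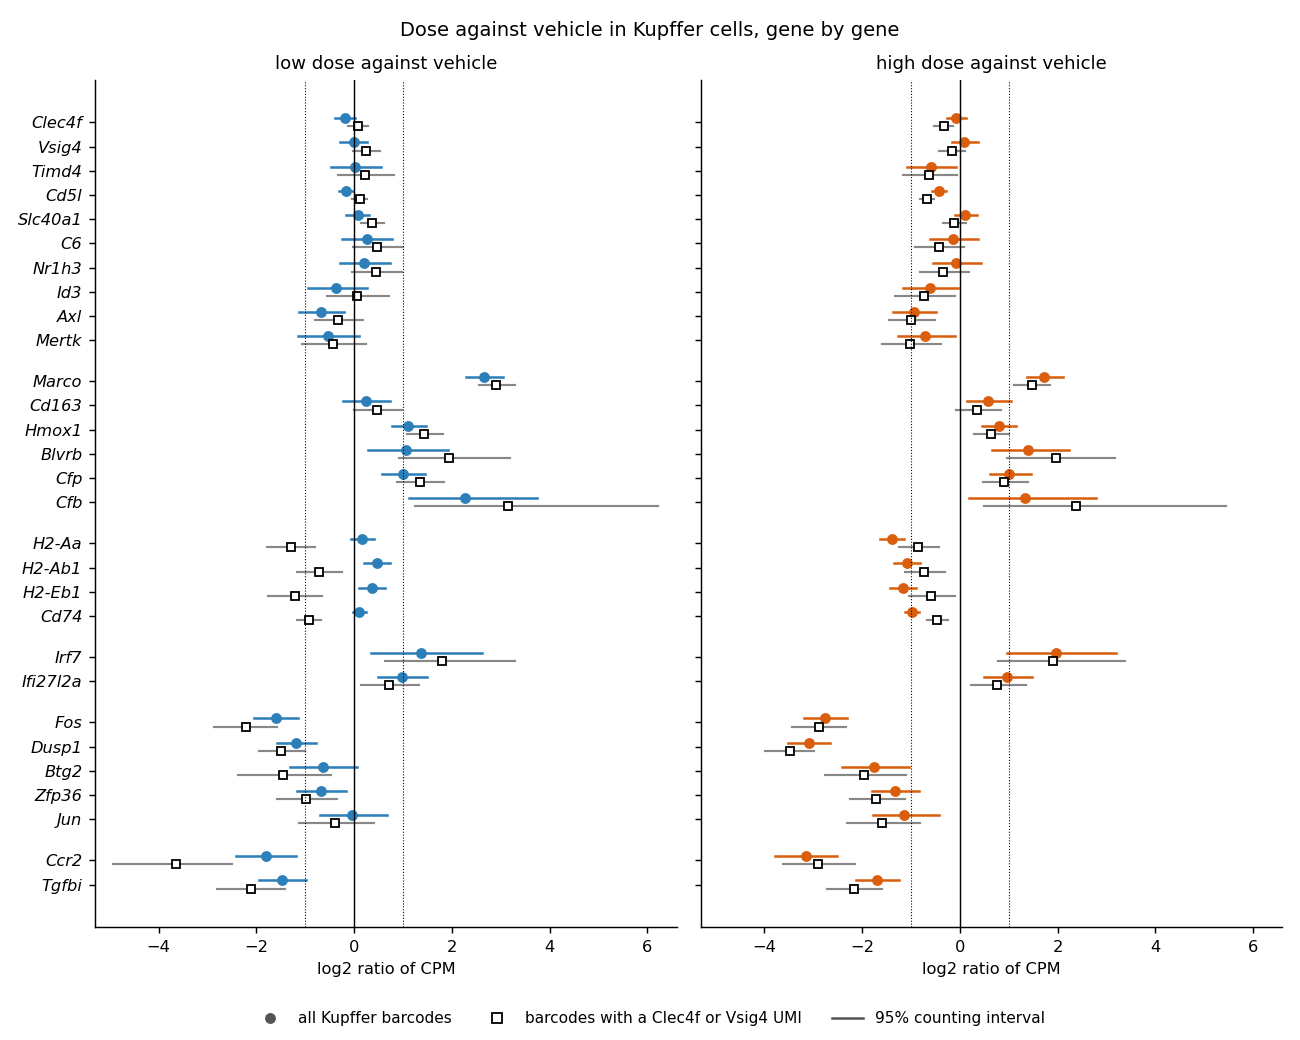
Log2 ratio of CPM of the low dose (left) and the high dose (right) against vehicle for 29 genes grouped by role. Filled circles are all Kupffer barcodes, open squares the barcodes with a Clec4f or Vsig4 UMI, lines 95% counting intervals and dotted lines 2-fold; the low dose circles of the 4 MHC class II genes lie above 0 and their squares below.

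Resident identity outside the gate was close between the groups for most genes, with Marco higher at both doses and Hmox1 at the low dose. Of 20 genes of this kind, 19 could be compared at the high dose, of which 1 stood 2-fold or more higher and none lower, with a median log2 ratio of -0.14. At the low dose 2 stood higher and none lower, with a median of 0.10. Among the barcodes with Clec4f or Vsig4, beside 11% higher and 7.09% lower of all genes, Marco stood 2-fold or more higher and Mertk lower at the high dose, with a median of -0.34, and Marco, Hmox1 and the adhesion molecule Cdh5 higher at the low dose, beside 8.14% of all genes. Slc40a1, which returns iron from digested red cells to the blood, stood at 1918 CPM in the vehicle group, 2018 at the low dose and 2079.7 at the high dose. The liver X receptor Nr1h3, a transcription factor that sets Kupffer identity, stood at 418, 482 and 395 CPM, and complement C6 at 418, 498 and 379 CPM. The 3 genes were within 2-fold of vehicle at both doses. Cd5l had a log2 ratio of -0.43 (-0.57 to -0.29) at the high dose, and -0.67 (-0.81 to -0.53) in barcodes with Clec4f or Vsig4. The apoptotic cell receptors Axl and Mertk stood at 579, 362 and 302 CPM and at 311, 213 and 190.4 CPM, with log2 ratios at the high dose of -0.94 (-1.36 to -0.50) and -0.71 (-1.27 to -0.09). Id3, a transcription factor of the Kupffer lineage, stood at 332, 258 and 216 CPM. Each of these 4 genes was lower at the high dose by less than 2-fold, but with the looser gate Cd5l turned to 0.19 and Id3 to 0.07, and Id3 to 0.28 with barcodes limited to 200 or more genes and less than 10% mitochondrial UMIs.

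Of 21 transcription factors and niche receptors of Kupffer cells, 17 could be compared at the high dose, and 2 stood 2-fold or more lower and none higher, beside 5.46% lower and 10.2% higher of all genes. They were Irf8, a factor of the monocyte lineage, at 557, 316 and 257 CPM, and Il6ra, the interleukin-6 receptor, at 171, 70.3 and 49.2 CPM. Without the UMIs of its richest barcode in each group the high dose log2 ratio of Irf8 was -0.45 in place of -1.11. Without the Timd4-alone barcodes Il6ra alone of 16 stood lower. The growth factor receptor Csf1r, on which Kupffer cells depend, stood at 1168, 1268 and 983 CPM. Klf4, a factor of monocytes and macrophages induced by stress, fell short of the 50-UMI minimum at the high dose, where it had 9 UMIs, and stood at 139, 78.6 and 8.36 CPM.

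Marco, a scavenger receptor that binds bacteria and particles, was the gene of the resident identity list furthest from vehicle at both doses. Its level was 675 CPM (519 to 864) in the vehicle group, 4246 (4064 to 4433) at the low dose and 2236 (2147 to 2327) at the high dose. The log2 ratio was 2.65 (2.29 to 3.04) at the low dose and 1.73 (1.37 to 2.11) at the high dose, or 6.29-fold and 3.31-fold. With only barcodes of Clec4f or Vsig4 the levels were 955, 7178 and 2646 CPM, and the median barcode stood at 189, 3011 and 749 CPM. Marco was found in 7 of 14, 33 of 41 and 112 of 162 of those barcodes. The highest barcode reached 5412, 33024 and 21197 CPM, so the groups overlapped, and both dosed groups reached above the vehicle maximum. Without the UMIs of the barcode richest in Marco in each group the log2 ratios were 4.07 and 3.33. At the low dose a barcode of 21733 UMIs held 570 Marco UMIs and a barcode of 15716 UMIs held 519. The same barcodes held 874 and 501 of the 1713 low dose Cxcl13 UMIs, so the low dose results of these genes share cells.

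Marco belongs to a list of 17 scavenger and efferocytosis receptors, of which 15 could be compared at the high dose. Marco alone stood 2-fold or more higher, none stood lower, and the median was 0.08. The hemoglobin receptor Cd163 stood at 471, 554 and 706 CPM, the scavenger receptor Msr1 at 471, 507 and 772 CPM and the mannose receptor Mrc1 at 729, 438 and 462 CPM. Barcodes with Clec4f or Vsig4 gave Marco and Stab1 higher, the latter on 1 vehicle UMI, and Mertk lower at the high dose, with a median of -0.03. Cd163 and Msr1 were, over all barcodes, higher and Mrc1 lower than vehicle at the high dose, each by less than 2-fold.

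Among genes of iron and heme handling, heme oxygenase Hmox1, which opens the heme ring, stood at 804 CPM (632 to 1007) in the vehicle group, 1733 (1618 to 1854) at the low dose and 1392 (1323 to 1465) at the high dose. The ratio to vehicle was 2.16-fold at the low dose and 1.73-fold at the high dose. The low dose barcodes richest in Marco held 133 and 102 of the Hmox1 UMIs, and the level without them was not computed. Across the alternatives the low dose log2 ratio of Hmox1 lay between 0.50 and 1.49. The median barcode did not follow the sums: the medians in barcodes with Clec4f or Vsig4 were 1208, 1078 and 715 CPM, while the upper quartiles were 3149.6 and 2278 CPM at the doses against 1765 in the vehicle group. Biliverdin reductase Blvrb, the next step of heme breakdown, stood at 161, 333 and 423 CPM, with a log2 ratio of 1.39 (0.66 to 2.24) at the high dose. Of 17 genes in the list 14 could be compared at the high dose, with a median of 0.15. Blvrb alone stood 2-fold or more higher there, beside 10.2% of all genes. Hmox1 and Blvrb were the ones past 2-fold at the low dose, 2 of 12 compared, beside 7.23% of all genes. Leaving out the Timd4-alone barcodes, the iron regulator Aco1 also stood 2-fold or more lower at the high dose, on 7 vehicle UMIs. The ferritin light chain Ftl1 stood at 8926, 9750.5 and 10714 CPM and the heavy chain Fth1 at 7383, 12232 and 7809.8 CPM.

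Some complement genes were higher in dosed Kupffer cells and others were not. Properdin (Cfp), which stabilizes the alternative pathway convertase, stood at 546 CPM (407 to 719) in the vehicle group, 1089.8 (999 to 1187) at the low dose and 1105 (1043 to 1170.0) at the high dose, or 1.99-fold and 2.02-fold vehicle. Factor B (Cfb), the protease of the same pathway, stood at 64.3, 310.2 and 162 CPM, and its partner C3 at 53.6, 182 and 143 CPM. The decay-accelerating factor Cd55, which limits the pathway on cell surfaces, stood at 21.4, 153 and 95.7 CPM. These 4 of 11 compared members stood 2-fold or more higher at the high dose and none lower, beside 10.2% and 5.46% of all genes, and the list's median was -0.00. C3, Cfb and Cd55 were the 3 of 9 past 2-fold at the low dose. Of the same genes C3, Cfb and Cd55 stood higher at the high dose also in barcodes with Clec4f or Vsig4, 3 of 11, with a median of -0.17, and Cfb, Cfp and Cd55 of 6 at the low dose. The vehicle counts behind Cfb, C3 and Cd55 were 6, 5 and 2 UMIs. The receptors C3ar1 and C5ar1 stood at 193, 145 and 108 CPM and 118, 114 and 83.6 CPM.

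The MHC class II genes showed how much the 20 Timd4-alone barcodes set a group's level. Over all barcodes H2-Aa stood at 1811 CPM (1548 to 2105) in the vehicle group, 2029 (1904 to 2159.7) at the low dose and 692 (643 to 744) at the high dose. The I-A beta chain H2-Ab1 stood at 1436, 1989 and 676 CPM, the I-E beta chain H2-Eb1 at 1457, 1884 and 650.2 CPM and Cd74 at 5454, 5863 and 2772 CPM. At the high dose the log2 ratios were -1.39 (-1.63 to -1.14) for H2-Aa, -1.09 (-1.35 to -0.81) for H2-Ab1, -1.16 (-1.43 to -0.89) for H2-Eb1 and -0.98 (-1.11 to -0.84) for Cd74. All 4 stood above vehicle at the low dose by less than 2-fold, with log2 ratios of 0.16, 0.47, 0.37 and 0.10. Of 7 class II genes 6 could be compared at the high dose, and 3 stood 2-fold or more lower, beside 5.46% of all genes. The class II peptide exchange factors H2-DMa and H2-DMb1 stood at 268, 333 and 249.9 CPM and 182, 217 and 122 CPM. Without the Timd4-alone barcodes the picture differed, since they held a class II level several times that of the others. H2-Aa then stood at 879 CPM (668 to 1137) in the vehicle group, 357 (291 to 433) at the low dose and 489 (445 to 537) at the high dose. In those barcodes H2-Ab1 stood at 849, 518 and 513 CPM, H2-Eb1 at 652, 279.8 and 434 CPM and Cd74 at 3016, 1595 and 2191 CPM. The log2 ratios of H2-Aa, H2-Ab1, H2-Eb1 and Cd74 became -1.30, -0.71, -1.22 and -0.92 at the low dose, and -0.85, -0.73, -0.59 and -0.46 at the high dose. All 4 were thus below vehicle at both doses, by less than 2-fold at the high dose, and for the low dose the direction turned. Per barcode, H2-Aa was above 0 in 10 of 14, 17 of 41 and 72 of 162 barcodes with Clec4f or Vsig4. The median Cd74 level of the same barcodes was 2129, 644 and 1178 CPM. At the low dose 1 of those barcodes held 57.8% of their H2-Aa UMIs. Without the deepest barcode of each group the high dose ratio of H2-Aa over all barcodes was -0.74. In T cell barcodes, which should lack H2-Aa, it was found after thinning in 3.70%, 4.59% and 3.70%, against 58.3%, 31.2% and 21.6% of Kupffer barcodes.

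These genes lie together on chromosome 17, H2-Aa at chr17:34282744-34287823 on the minus strand, H2-Ab1 at chr17:34257689-34269419 and H2-Eb1 at chr17:34305867-34316674 on the plus strand (GENCODE vM21, GRCm38). Class II promoters share a Y box, bound by NF-Y, which lies beside the sites at which the activator CIITA is recruited, and the bases around it are shown because 3 class II genes stood 2-fold or more lower together at the high dose over all barcodes, though none did so without the Timd4-alone barcodes. The letters CTGATTGG were searched on both strands of the 250 bases before each start in RefSeq promoter windows of GRCm38.p6. In the lines below each sequence reads 5′ to 3′ on the strand of the gene, with the match in capitals.
H2-Aa, chr17:34287824-34287920, minus strand: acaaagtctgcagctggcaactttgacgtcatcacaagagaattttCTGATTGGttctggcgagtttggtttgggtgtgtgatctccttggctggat
H2-Eb1, chr17:34305759-34305858, plus strand: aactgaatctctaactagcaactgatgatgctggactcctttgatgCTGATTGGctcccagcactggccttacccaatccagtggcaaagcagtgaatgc
The match ended 43 bases before the start of H2-Aa and 54 before that of H2-Eb1. It was also in the window of H2-Oa and in neither strand of the windows of H2-DMa and H2-DMb1, which says only that these letters are not there. H2-Ab1 was not among the windows searched. Of 32851 promoter windows, 3.83% held these letters. A match is a description of sequence, and the data hold no measurement of binding. Ciita itself stood at 64.3, 62.0 and 40.9 CPM, on 6, 30 and 44 UMIs.

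MHC class I and its processing machinery, in contrast, differed little. Of 10 genes 8 could be compared at each dose, and none stood 2-fold apart in either direction, with median log2 ratios of -0.04 at the high dose and -0.06 at the low dose. The heavy chain H2-K1 stood at 1575, 1603 and 1608 CPM and beta-2 microglobulin (B2m) at 2839.5, 2579 and 2592 CPM.

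Immediate early genes, which cells switch on within minutes of a stimulus or of handling, were mostly lower at the high dose, while at the low dose most were within 2-fold of vehicle. Fos, a subunit of the transcription factor AP-1, stood at 739 CPM (575 to 936) in the vehicle group, 244 (202 to 292) at the low dose and 109.6 (90.7 to 131) at the high dose. The phosphatase Dusp1, which ends MAP kinase signalling, stood at 836 CPM (661 to 1043) in the vehicle group, 368 (316 to 426) at the low dose and 98.5 (80.6 to 119) at the high dose. Their log2 ratios were -1.60 (-2.04 to -1.15) and -1.18 (-1.57 to -0.78) at the low dose and -2.75 (-3.19 to -2.30) and -3.09 (-3.52 to -2.64) at the high dose. With the looser gate they were -0.31 and -0.10 at the low dose and -1.71 and -2.11 at the high dose. Of 12 genes in the list 9 could be compared at each dose. At the high dose 7 stood 2-fold or more lower and none higher, with a median log2 ratio of -1.28, beside 5.46% lower and a median of -0.05 over all genes. At the low dose 2 stood lower and 1 higher, with a median of -0.15. The messenger RNA decay factor Zfp36 stood at 482, 299.9 and 191 CPM, Junb at 589, 531 and 249.9 CPM and the antiproliferative gene Btg2 at 268, 172 and 79.9 CPM. Atf3, induced by many stresses, stood at 150.0, 47.6 and 31.6 CPM. Ier3 was the one 2-fold or more above vehicle at the low dose, at 129, 387 and 52.9 CPM, and its low dose log2 ratio without the Timd4-alone barcodes was -0.17. In barcodes with Clec4f or Vsig4, 6 of 7 compared members stood lower at the high dose, with a median of -1.71, and at the low dose 2 of 6 lower and none higher, beside 2.37% and 8.14% of all genes, with a median of -0.69.

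A minority of barcodes held these transcripts in any group. Among barcodes with Clec4f or Vsig4, Fos was above 0 in 5 of 14, 12 of 41 and 23 of 162, and Dusp1 in 6, 14 and 26. A single vehicle barcode of 11974 UMIs, which passed the gate narrowly, held 48.9% of that subset's Fos UMIs. Over all vehicle barcodes the deepest one, with no UMI of Clec4f, Vsig4 or Cd5l, held 34.8% of the Fos UMIs. The transcripts also moved with Malat1: at the high dose Dusp1 stood at 120.1 CPM in barcodes with at least 3 Malat1 UMIs and 30.7 in those with fewer. With only the former barcodes in every group, the high dose log2 ratios were -2.60 for Fos and -3.00 for Dusp1, on 8 vehicle barcodes. Of 10 heat shock genes, which also respond to stress and handling, 7 could be compared at the high dose, with a median of 0.27. Among them 1 stood 2-fold or more higher and none lower, beside 10.2% and 5.46% of all genes. Hspa8 stood at 1822, 1311 and 1331 CPM and the mitochondrial chaperone Hspd1, the one past 2-fold, at 75.0, 151 and 208 CPM. The inducible Hspa1a and Hspa1b stood at 161, 22.7 and 29.7 CPM and 107, 26.9 and 66.9 CPM, highest in the vehicle group, where the richest barcode held 93.3% and 100% of the UMIs. For barcodes with Clec4f or Vsig4 the list had Hspd1 higher and Hspa1b lower, and its median was -0.17.

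Among the interferon-stimulated genes that could be compared, Irf7 stood furthest from vehicle at both doses. Irf7, a transcription factor that amplifies type I interferon, stood at 85.7 CPM in the vehicle group, 221 at the low dose and 334 at the high dose. The log2 ratio was 1.37 (0.34 to 2.62) at the low dose and 1.96 (0.97 to 3.19) at the high dose, on 8 vehicle UMIs. Of the 11 compared members Irf7 alone stood past 2-fold at the high dose, beside 10.2% higher of all genes. None stood lower, and the median was 0.36. In barcodes with Clec4f or Vsig4, 3 of 9 stood higher at the high dose and none lower, Irf7, Bst2 and Zbp1, on 6, 7 and 2 vehicle UMIs, with a median of 0.63. Over all barcodes Ifi27l2a stood at 407, 798 and 798 CPM, just under 2-fold at both doses. Of the antiviral effectors Isg15 stood at 32.1, 49.6 and 54.8 CPM, Bst2 (tetherin) at 204, 136 and 251 CPM, and Ifi44 at 150.0, 78.6 and 124 CPM. At the low dose 1 of 6 stood higher and 1 lower, Ifi204 at 182, 84.8 and 129 CPM, while among barcodes with Clec4f or Vsig4 it was 1 of 3 and none lower. After thinning, Irf7 was found in 16.7%, 25% and 21.6% of Kupffer barcodes, or at 500 UMIs in 0 of 16 (exact upper limit 20.6%), 9.43% and 13.7%, and the intervals of the 3 shares overlapped at both depths. In T cell barcodes, which also use Irf7, the shares were 7.41%, 2.75% and 3.70%.

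Of 13 genes more typical of interferon gamma, 11 could be compared at the high dose, with a median of 0.28. Among them 2 stood 2-fold or more higher and none lower, beside 10.2% and 5.46% of all genes. They were the T cell attractants Cxcl9 and Cxcl10, at 32.1, 263 and 142 CPM and 0, 29.0 and 79.9 CPM. In barcodes with Clec4f or Vsig4 no vehicle UMI of either was found, Cxcl9 stood at 35.0 and 98.9 CPM at the low and high dose, and 1 barcode held 100% and 42.2% of the UMIs. Without the Timd4-alone barcodes the median was 1.12. There 4 of 7 compared members stood 2-fold or more higher and none lower, beside 11% and 7.09% of all genes. These were Cxcl9 and the GTPases Gbp4, Gbp7 and Iigp1, on 0, 1, 6 and 6 vehicle UMIs. The count and median of this list thus rested on which barcodes were kept. With the stricter gate the low dose log2 ratio of Cxcl9 was -0.44. Over all barcodes the GTPase Gbp7 stood at 161, 161 and 219 CPM and Irf1 at 193, 101 and 107 CPM.

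Several chemokines stood far from vehicle, and some rested on few barcodes. Of 16 genes 13 could be compared at the high dose, 7 stood 2-fold or more higher and 1 lower, beside 10.2% and 5.46% of all genes, with a median of 1.31, or 0.13 with the looser gate. Cxcl13, which draws B cells and is made by Kupffer cells and some other macrophages, stood at 118 CPM (58.8 to 211) in the vehicle group, 3542 (3377 to 3714) at the low dose and 1406 (1336 to 1479) at the high dose. That was 30.1-fold and 11.9-fold vehicle, but 1 low dose barcode held 51.0% of the UMIs and 1 vehicle barcode 81.8%. Of the 1713 low dose UMIs, 874 lay in that low dose barcode and 501 in another, and these were the low dose barcodes richest in Marco. Among barcodes with Clec4f or Vsig4, Cxcl13 was found in 3 of 14, 22 of 41 and 57 of 162. The monocyte attractants Ccl2, Ccl8 and Ccl12 stood at 32.1, 108 and 179 CPM, at 85.7, 51.7 and 456 CPM and at 21.4, 45.5 and 104 CPM. With the looser gate the high dose log2 ratios of Ccl8 and Ccl12 were -0.0161 and -1.32. In barcodes with Clec4f or Vsig4, Ccl8 had no UMI in the vehicle group or at the low dose and 382 UMIs at the high dose. Against a floor of 3 counts set for the vehicle group that was 9.23-fold higher. A single high dose barcode held 35.6% of these UMIs. In the same barcodes 4 of 9 chemokines stood higher and none lower, with a median of 0.98. Ccl6, the most abundant member in the vehicle group and at the high dose, stood at 3172, 2287 and 2834 CPM. Ccl24, an eosinophil attractant, stood at 1447, 517 and 937 CPM and was 2-fold or more lower at the low dose. The neutrophil attractant Cxcl2 was the one lower at the high dose, at 321, 711 and 144 CPM, but in barcodes with Clec4f or Vsig4 it had 4 vehicle UMIs, and without the deepest barcode of each group its high dose log2 ratio was 1.15.

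Among inflammatory cytokines and NF-kB targets Il1b and Sod2 stood highest at the low dose. Of 18 genes 8 could be compared at the low dose, with a median of 0.75. Il1b, Nfkbiz and Sod2, 3 in all, stood 2-fold or more higher, beside 7.23% of all genes. At the high dose 2 of 9 stood higher and 1 lower, Bcl3 and Sod2 against Ccrl2, beside 10.2% and 5.46% of all genes. The median there was -0.06. Interleukin-1 beta (Il1b) stood at 129 CPM (66.4 to 225) in the vehicle group, 670.0 (599 to 747) at the low dose and 237 (209 to 268) at the high dose. The mitochondrial superoxide dismutase Sod2, an NF-kB target, stood at 96.4, 490.1 and 215 CPM. Both were highest at the low dose also in barcodes with Clec4f or Vsig4, where Il1b stood at 75.8, 489.7 and 182 CPM and Sod2 at 60.6, 518 and 239 CPM. In these barcodes Il1b and Sod2 stood 2-fold or more higher and Nfkb1 lower at the high dose, of 7 compared, and Il1b and Sod2 higher of 4 at the low dose. As a mean over cells the low dose log2 ratio of Nfkbiz was -0.28. Tumor necrosis factor (Tnf) had 0, 19 and 12 UMIs and Il6 0, 3 and 15. A count of 0 in the vehicle group allows up to 32.1 CPM. The lipopolysaccharide coreceptor Cd14 stood at 268, 589 and 119.8 CPM, 2-fold or more above vehicle at the low dose and below it at the high dose. In barcodes with Clec4f or Vsig4 its low dose log2 ratio was 0.00. Of 14 microbial sensors, 6 could be compared at the high dose, Cd14 stood lower, none higher, and the median was 0.36. The 6 Fc receptor genes had a median of -0.49, with the inhibitory receptor Fcgr2b lower at 289, 179.9 and 136 CPM. Among barcodes with Clec4f or Vsig4, Cd14 and Myd88 stood 2-fold or more lower at the high dose, Fcgr1 higher, and the median of the Fc receptors was 0.12. The high dose log2 ratio of Fcgr2b there was 0.49 (-0.78 to 2.15).

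Genes of recruited monocytes and macrophages moved in both directions. Ccr2 stood at 429 CPM (306 to 584) in the vehicle group, 122 (92.9 to 157) at the low dose and 48.3 (36.1 to 63.3) at the high dose. It stood at 394, 31.5 and 52.8 CPM in barcodes with Clec4f or Vsig4, and without the UMIs of its richest barcode in each group the high dose log2 ratio was -3.04. Of the 40 vehicle Ccr2 UMIs, 20 lay in a barcode that passed the gate narrowly. A further 14 lay in the deepest barcode, which had no UMI of Clec4f, Vsig4 or Cd5l. Each of these checks kept 1 of these barcodes, so neither shows the Ccr2 level of the remaining vehicle barcodes. Plac8, a gene of monocytes, stood at 1050.1, 416 and 536 CPM, where 1 vehicle barcode held 64.3% of the UMIs. Without the UMIs of the richest barcode in each group the low dose log2 ratio of Plac8 was -0.14 and that of Trem2 -0.0197. Osteopontin (Spp1), a product of lipid-laden and scar-associated macrophages, had no UMI in the vehicle group and stood at 49.6 and 448 CPM at the doses. Against a floor of 3 counts set for the vehicle group the high dose level was 13.9-fold higher. Fn1 stood at 96.4, 1022 and 729 CPM, and in barcodes with Clec4f or Vsig4 at 45.5, 17.5 and 507 CPM, of which 1 high dose barcode held 50.8%. Of 17 genes 13 could be compared at the high dose. Among them 3 stood higher and 1 lower, Fn1, Spp1 and Cd9 against Ccr2, beside 10.2% and 5.46% of all genes. Fn1 and Chil3 stood higher at the low dose, and Ccr2, Plac8 and Trem2 lower, while Chil3, a gene of neutrophils and alternatively activated macrophages, had a low dose log2 ratio of -3.14 without barcodes of more than 2% other-lineage UMIs. With the looser gate Cd9 turned to -0.29 at the high dose. Restricted to barcodes with Clec4f or Vsig4, Fn1 and Spp1 stood higher and Ccr2, Plac8 and S100a4 lower at the high dose, and Plac8 and S100a6 lower at the low dose. The median was -0.42 over all barcodes and 0.30 in those with Clec4f or Vsig4. Galectin-3 (Lgals3) stood at 1404, 873 and 883 CPM and vimentin (Vim) at 1093, 674 and 452 CPM. The acute phase protein Saa3 stood at 182, 4609.5 and 770.0 CPM, and 1 barcode held 71.9% of the low dose UMIs in barcodes with Clec4f or Vsig4. Rgs1, a brake on chemokine signalling, had a log2 ratio of -1.19 (-1.58 to -0.78) at the high dose, which was -0.0659 with barcodes limited to 200 or more genes and less than 10% mitochondrial UMIs and -0.61 without the UMIs of its richest barcode in each group. The actin-binding Tmsb10 stood at 664, 372 and 361 CPM.

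Markers of other cells were counted in the same barcodes, and their part in the results above was not tested. The 10 neutrophil genes summed to 911 CPM in the vehicle group, 17491 at the low dose and 10314 at the high dose, with S100a9 or S100a8 the most abundant and 5 of the 10 at 0 in the vehicle group. The top 3 barcodes held 88.8% of these UMIs at the low dose and 88.4% at the high dose, and the median barcode held 3, 5 and 2. At the high dose the richest barcode of each gene held 43.1% of the UMIs of S100a8, 33.6% of S100a9, 44.6% of Ngp, 39.4% of Lcn2, 50.4% of Ltf, 47.5% of Camp and 1392 of 1465 UMIs of Slpi. Without barcodes of more than 2% other-lineage UMIs the high dose log2 ratio of S100a8 was -0.42 in place of 4.00. Erythroid genes summed to 21.4, 10724 and 136 CPM, led by Hbb-bs, and 99.7% of the low dose UMIs lay in 3 barcodes, which placed Hbb-bs, Hba-a1 and Hba-a2 at the head of that comparison. Platelet factor 4 (Pf4), which some macrophages also make, stood at 21.4, 84.8 and 1364 CPM while the platelet markers Ppbp, Itga2b and Gp9 were at 0 in all groups and Itgb3 had 1, 2 and 3 UMIs. A single high dose barcode held 40.0% of the Pf4 UMIs.

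Hepatocyte genes summed to 75.0, 105 and 255 CPM, with Apoa2, Fgb and Apoa1 the most abundant in turn, and sinusoidal endothelial genes to 311, 354 and 424 CPM, led by Pecam1, Dnase1l3 and Clec4g. T cell genes summed to at most 20.7 CPM, NK cell genes to 25.1, B cell genes to 91.0, stellate cell and fibroblast genes to 32.1 and epithelial genes of 4T1 cells to 47.4 CPM in any group. Of 7 dendritic cell genes, Xcr1, Siglech, Cd209a and Ccr9 were at 0 throughout, Flt3 had 1 UMI at the low dose, Clec9a had 1, 3 and 9, and Batf3 led with 75.0, 84.8 and 104 CPM. Genes that splenic macrophages use, of which Kupffer cells share Spic, Vcam1 and Siglec1, summed to 1211, 1181 and 1107 CPM.

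CBL0137 is known to act on the histone chaperone FACT, to favour Z-DNA and to affect p53, so genes of those pathways were read as well. The FACT subunits Ssrp1 and Supt16 stood at 42.9, 76.5 and 85.5 CPM and at 64.3, 82.7 and 67.8 CPM, on 4 and 6 vehicle UMIs. Of 6 FACT and chromatin genes 2 stood 2-fold or more higher at the high dose, Hmgb1 and Hmgb2, beside 10.2% of all genes. The median was 0.75. With the looser gate Hmgb1 stood at 0.25 at the high dose, and Hmgb2 turned to -1.07 at the high dose and -0.92 at the low dose. Hmgb1 stood at 96.4, 258 and 294 CPM. The Z-nucleic acid sensor Zbp1 stood at 42.9, 72.4 and 70.6 CPM and its partner kinase Ripk3 at 53.6, 60.0 and 60.4 CPM, and none of the 5 compared genes of that list stood 2-fold apart at the high dose, with a median of 0.09. Among p53 targets Cdkn1a (p21) stood at 96.4, 147 and 146 CPM and Mdm2 at 85.7, 51.7 and 53.9 CPM, and none of 4 compared stood 2-fold apart, with a median of -0.11. With the Timd4-alone barcodes left out, Zbp1 and Cdkn1a stood 2-fold or more higher and Mdm2 lower at the high dose, on 2, 2 and 8 vehicle UMIs, and the medians were 0.37 over 4 genes of the Zbp1 list and 0.73 over 3 p53 targets. Of the inflammasome genes 3 could be compared, none 2-fold apart, with a median of -0.08. At this depth, differences of less than 2-fold in genes of a few vehicle UMIs were not detectable, and larger ones were imprecise. In simulated counts, 9.03% of unchanged genes passed 2-fold at the high dose. The simulation held counting error but no spread between barcodes, so it cannot show how many unchanged genes would pass with that spread.

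Genes of cell division stood higher at the high dose on low counts, and the direction turned with the gate. They summed to 418, 1026 and 931 CPM. At the high dose 6 of 10 compared members stood 2-fold or more higher and none lower, beside 10.2% and 5.46% of all genes. Their median was 1.21. At the low dose 3 of 4 stood higher, beside 7.23% of all genes. With the looser gate the high dose median was -0.21, and Mki67 stood at -0.43 at the high and -0.41 at the low dose. In barcodes with Clec4f or Vsig4, 4 of 6 stood higher at the high dose and none of 1 at the low dose. The shares of all genes were 11% and 8.14% there. The proliferation antigen Mki67 had 0, 50 and 86 UMIs, and 1 barcode held 81.0% of the low dose and 38.9% of the high dose UMIs in barcodes with Clec4f or Vsig4. The clamp protein Pcna stood at 182, 192 and 174 CPM, without a difference of 2-fold.

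Most lysosomal and lipid genes were within 2-fold of vehicle. None of 17 compared lysosomal genes stood 2-fold apart at the high dose, none of 16 at the low dose, and the medians were -0.28 and -0.23. The protease cathepsin B (Ctsb) stood at 6526, 5441 and 4582 CPM and prosaposin (Psap), the parent of lysosomal lipid activators, at 4639.6, 3367 and 3168 CPM. Apolipoprotein E (Apoe) stood at 15151, 13636 and 13059.7 CPM. The cholesterol exporters Abca1 and Abcg1 stood at 225, 184 and 140.3 CPM and 246, 223 and 148 CPM. Of 13 compared genes of lipid efflux, the fatty acid binding protein Fabp5 alone stood 2-fold or more higher at the high dose, at 32.1, 45.5 and 149.5 CPM and a log2 ratio of 2.22, or 0.33 with the looser gate, with a list median of -0.12. Leaving out the Timd4-alone barcodes added Mylip, which marks lipoprotein receptors for breakdown, as lower, on 9 vehicle UMIs. Cholesterol synthesis genes were too scarce to compare, summing to 107, 178 and 205 CPM. Of costimulation and checkpoint genes 5 could be compared, none 2-fold apart, and the checkpoint ligand Cd274 (PD-L1) stood at 75.0, 78.6 and 54.8 CPM.

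**Figure D4:**
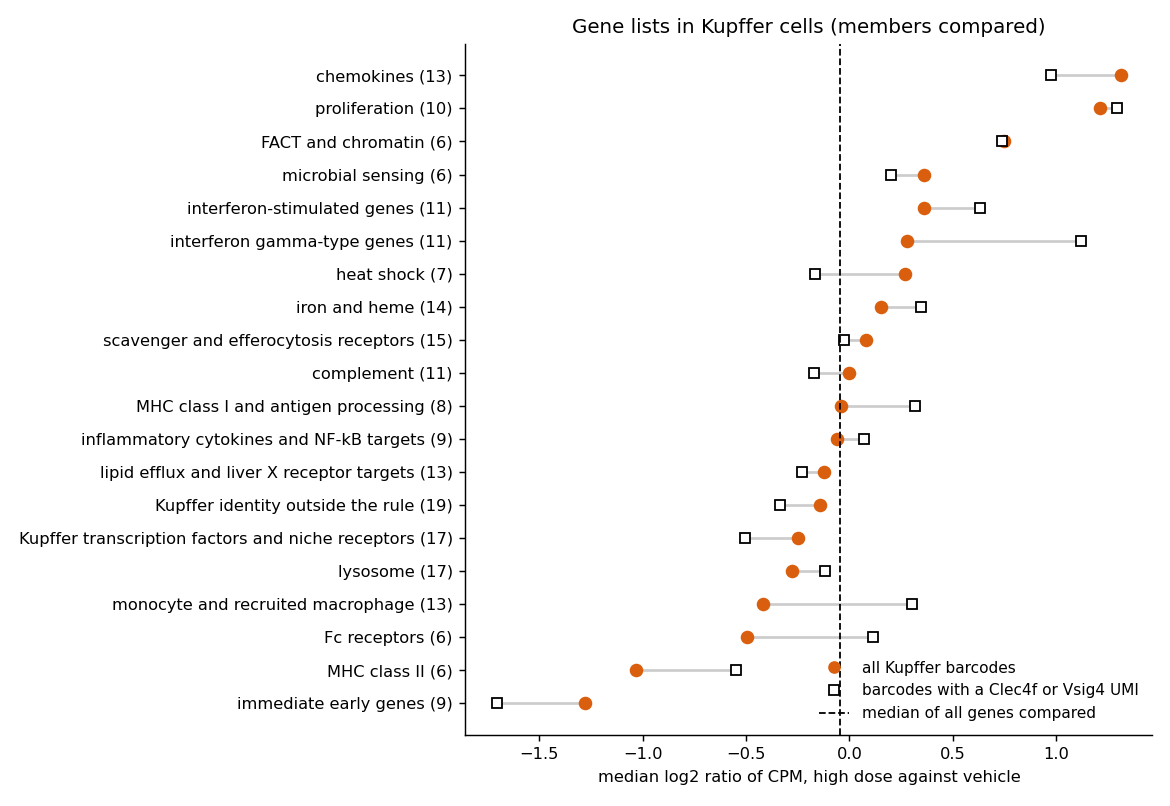
Median log2 ratio of CPM, high dose against vehicle, for gene lists with at least 5 members compared in both sets of barcodes (in parentheses, members compared over all barcodes). Filled circles are all Kupffer barcodes, open squares barcodes with a Clec4f or Vsig4 UMI (fewer members reach 50 UMIs there), and the dashed line the median of all genes, -0.05; immediate early genes lie furthest left and MHC class II genes next.

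Kupffer cells were set beside the macrophages of the same library that passed the C1q and Cd3 limits with at most 1 UMI of Clec4f, Vsig4 and Timd4: 47 vehicle, 62 low dose and 158 high dose barcodes. Since the gate split both classes on their RNA, the comparison describes and does not test. In the vehicle group 1476 genes had at least 50 UMIs over both classes, of which 79 (5.35%) stood 2-fold or more higher in Kupffer cells and 138 (9.35%) lower. Among genes with 200 or more UMIs the 10 highest were Clec4f, Cd5l, Slc40a1, Sdc3, Selenop, Ctsb, Wfdc17, Ccl24, Plac8 and Ccl6, and the 5 lowest Pf4, Mmp9, Ccl8, Fn1 and Sdc4. Plac8 had a log2 ratio of -0.41 at the low dose and 0.16 at the high dose, and Ccl24 of -0.04 and 0.59. Of the 98 Plac8 UMIs in vehicle Kupffer barcodes, 63 lay in 1 barcode that passed the gate narrowly. Cd5l stood at 4950.4 against 113 CPM in the vehicle group, 4419 against 83.5 at the low dose and 3673 against 75.0 at the high dose. Slc40a1 stood at 1918 against 110.4 CPM in the vehicle group, 2018 against 41.1 at the low dose and 2079.7 against 164 at the high dose. Marco stood at 675 against 2.40 CPM in the vehicle group, 4246 against 31.8 at the low dose and 2236 against 17.2 at the high dose. The vehicle macrophages held 1 UMI of Marco, and the lower limit of that log2 ratio was 5.61. These 3 genes, none of them in the gate, thus separated the classes by over 10-fold in every group. The log2 ratios of the syndecan Sdc3 were 2.50, 2.92 and 2.03 from vehicle to high dose, those of the adhesion molecule Vcam1 2.77, 3.06 and 2.81, and those of Nr1h3 2.92, 2.70 and 2.15. Hmox1 stood higher in Kupffer cells in each group, with log2 ratios of 1.43, 1.68 and 1.38. Apoe, a gene of macrophages in general, had log2 ratios of 0.21, 0.03 and 0.05.

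For other genes the distance between the classes differed by group. H2-Aa stood at 1811 against 4204 CPM in the vehicle group, 2029 against 1987 at the low dose and 692 against 1141 at the high dose. Without the Timd4-alone barcodes the Kupffer cell levels were 879, 357 and 489 CPM, below the macrophages in each group and lowest at the low dose. Among macrophages without Kupffer markers H2-Aa was lowest at the high dose, and Cd74 stood there at 10455, 6204 and 4048 CPM. Fos in these macrophages stood at 1199.8, 802 and 288 CPM, and Dusp1 at 727, 531 and 201. The lower level of Fos and Dusp1 at the high dose was thus shared by both classes, as was the higher share of Malat1-poor barcodes, 27.7%, 19.4% and 58.2% in the macrophages. Irf7 differed in this respect: it stood at 125, 84.8 and 145 CPM in the macrophages, within 2-fold of their vehicle level, while it stood over 2-fold above vehicle in Kupffer cells at either dose. The difference between the classes was not tested. Cxcl13 in the macrophages had no vehicle UMI and stood at 924 and 32.8 CPM at the doses. Pf4 and Fn1, at 1041 and 823 CPM in vehicle macrophages, had 2 and 9 UMIs in vehicle Kupffer barcodes, with log2 ratios of -5.60 (-8.65 to -3.74) and -3.09 (-4.23 to -2.15), and stood close between the classes at the high dose, with 0.28 and -0.28.

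**Figure D5:**
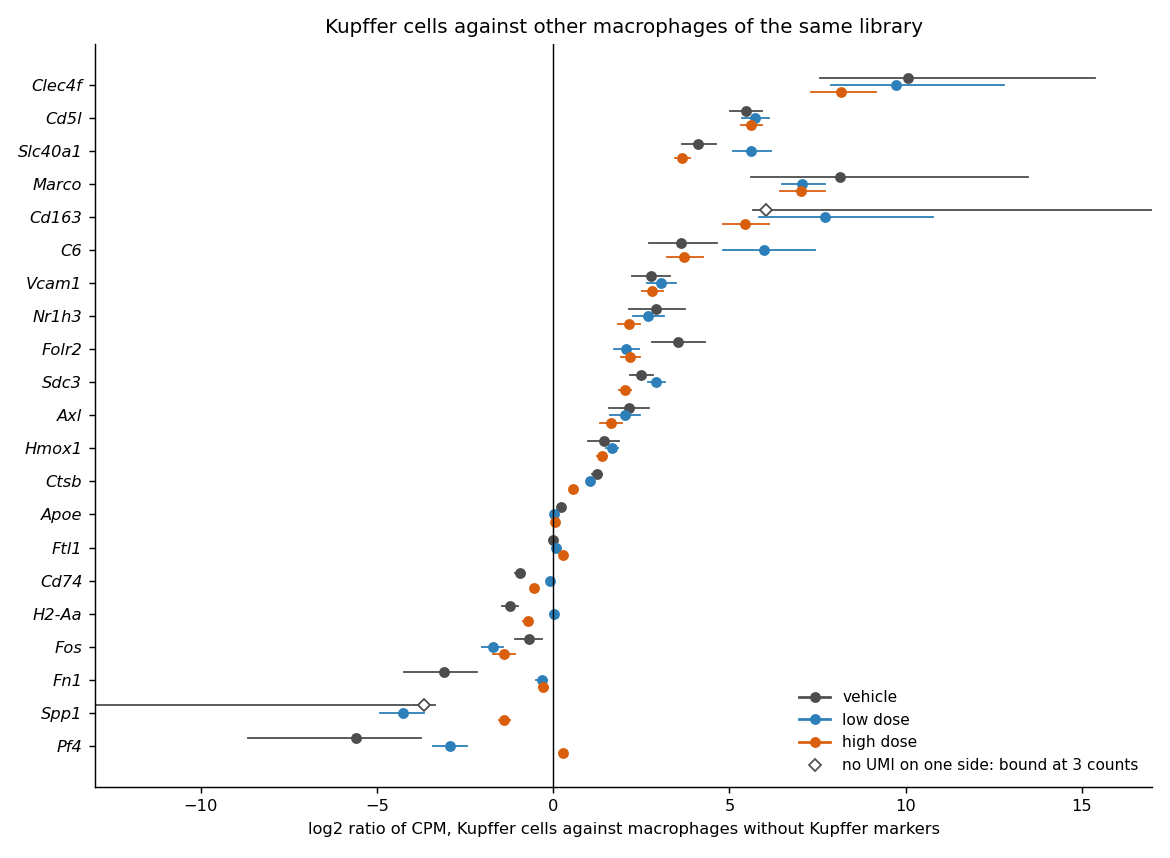
Log2 ratio of CPM of Kupffer cells against macrophages without Kupffer markers of the same library for 21 genes, by treatment group. Points are ratios, lines 95% counting intervals cut at the edges of the plot, and open diamonds bounds at 3 counts where 1 class had no UMI; Cd5l lies between 5 and 6 in all groups, while Pf4 runs from -5.60 in the vehicle group to 0.28 at the high dose.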

How the data were processed

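The data were single-cell RNA UMI counts of 1 hashtagged library. The authors deposited UMI counts per gene and barcode, made with Cell Ranger on mm10 (5.0.0 in the matrix header, 6.0.0 in the submitters' processing notes), with hashtag counts in the same matrix. Hashtags gave the groups by the rule stated in the report, which leaves out barcodes with no clearly leading hashtag, and HTODemux (Seurat 5.3.0, R 4.3.3, quantile 0.99) was an alternative. Doublets within a hashtag were kept, with an alternative that left out barcodes of more than 2% neutrophil, hepatocyte, endothelial, T or B cell UMIs. No filter on depth or mitochondrial share was applied. UMIs were summed per group and expressed as CPM. Levels carry exact Poisson intervals, ratios exact conditional binomial intervals and shares Clopper-Pearson intervals, all at 95% and for counting error only. Intervals of levels and ratios leave out the spread between barcodes. A count of 0 was set at 3 counts per group to give a bound. With 1 pooled sample per group no test was run. A gene was compared where both groups together held 50 UMIs or more and 2-fold was the size named. The text names the genes of the gate, list members furthest from 0 or most abundant, and the 10 highest and 10 lowest ratios at the high dose, 5 and 5 at the low dose and 10 and 5 against other macrophages, among genes with at least 200 UMIs. List members 2-fold or more apart in barcodes with Clec4f or Vsig4 were named after their values were seen. The members, gene lists and alternatives were chosen with earlier results of these data known. Some list members were left out and are not reported here. The Malat1, Timd4-alone, deepest-barcode and top-barcode alternatives were added after seeing the data. The ratios and intervals were tested on simulated counts, where 98.5% of 200 changed genes passed 2-fold at the high dose, as did 9.03% of unchanged ones. These counts were drawn per group without spread between barcodes. Sequences came from the matrix features and from RefSeq promoters of GRCm38.p6, and positions from GENCODE vM21. Python 3.11.15, numpy 2.4.6, scipy 1.17.1, pandas 2.3.3 and matplotlib 3.10.9 were used.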

Additional observations from a re-analysis of the deposited data

How the results depend on the processing

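The share of Kupffer cells kept its order, lowest in the vehicle group and highest at the high dose, under each gate and barcode filter tried, but its size moved with them. With the stricter gate it was 2.66% at the low and 5.25% at the high dose, with the looser gate 3.41%, 5.24% and 9.72% from vehicle to high dose, and 5.75% at the high dose with barcodes limited to 200 or more genes and less than 10% mitochondrial UMIs. Without barcodes of more than 2% other-lineage UMIs, which also removes other cells from the total, it was 3.99%, 8.12% and 8.43%, the dosed groups then lying close together. Barcodes with at least 3 Malat1 UMIs gave 2.91% and 4.54% at the low and high dose. The counts of genes 2-fold or more apart were 513 at the high dose, 161 at the low dose and 217 against other macrophages. They became 1015, 357 and 395 as a mean over cells, 58, 26 and 36 with at least 200 UMIs and 1318, 700 and 875 with at least 20 UMIs. The mean over cells compared the same number of genes, while the UMI minimums compared fewer and more genes, and the share 2-fold or more apart at the high dose was 7.43% and 21.2% there in place of 15.6%. The looser gate gave 114 against other macrophages. The other alternatives left these counts within 1.5-fold.

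Ratios past 2-fold that changed sign are given here, and the cause was not tested. Ratios nearer 0 also changed sign in widely held genes: across the alternatives the high dose log2 ratio of Cd5l lay between -0.78 and 0.19, Id3 between -0.77 and 0.28 and Apoe between -0.32 and 0.067, and the low dose ratio of H2-Aa between -1.46 and 0.77. Under HTODemux the log2 ratio of Hbb-bs was -1.31 at the high dose, and Chil3 and Ngp stood at -2.58 and -0.70 at the low dose. With hashtags of at least 50 UMIs and 5 times the next, Chil3 and Ngp stood at -2.63 and -0.35 at the low dose. The stricter gate gave -0.44 for Cxcl9 and -1.37 for Ngp at the low dose. The looser gate gave -0.016 for Ccl8, -1.32 for Ccl12, 0.45 for Cxcl2, -1.07 for Hmgb2, -0.43 for Mki67, -0.29 for Cd9, -0.11 for Slpi and a median of -0.21 for proliferation genes at the high dose, and -0.92 for Hmgb2 and -0.41 for Mki67 at the low dose. With the limits on genes and mitochondrial UMIs Hbb-bs stood at -1.09 at the high dose, and with at least 3 Malat1 UMIs at -0.52. Without barcodes of more than 2% other-lineage UMIs the high dose gave -0.42 for S100a8, -0.51 for S100a9, -1.14 for Ngp, -2.80 for Ltf and -0.90 for Slpi, and the low dose -3.14 for Chil3 and -0.81 for Ngp. As a mean over cells Nfkbiz stood at -0.28 and Hmgb2 at -0.17 at the low dose. Without the deepest barcode of each group Cxcl2 stood at 1.15, Fcgr2b at 0.30 and Slpi at -1.12 at the high dose. Without the Timd4-alone barcodes Fcgr2b stood at 0.49 and Slpi at -1.12 at the high dose, and Ier3 at -0.17, Chil3 at -4.12, Fn1 at -1.38 and Ngp at -0.95 at the low dose. Without the UMIs of each gene's richest barcode Cxcl2 stood at 0.72, Fcgr2b at 0.62 and Hbb-bs at -0.069 at the high dose, and Ngp at -0.50 at the low dose. No value could be given where the vehicle group fell to 0 and the dosed level lay under the floor of 3 counts.

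Across all alternatives the high dose log2 ratio of Marco lay between 1.25 and 5.33, Irf7 between 1.59 and 2.38, Dusp1 between -3.63 and -2.11, Fos between -2.98 and -1.71 and H2-Aa between -1.94 and -0.52. Every ratio of a dosed group to vehicle rested on the 16 vehicle barcodes and their 93326 UMIs, which limited its precision. No paired analysis was possible because each group was 1 pooled sample.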
